A study of Mus musculus with 18 samples.

Results

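The genes described here encode the kinetochore, the mitotic spindle and the machinery of cytokinesis, with the proliferation marker Mki67. They are 45 of the 18193 genes named by a probe set with a single gene symbol, and 106 of the 34945 such probe sets. A probe set was taken when its only gene symbol was one of the 45, and every one of the 45 had at least 1. The series measured RNA from 9 normal mouse prostates (ventral and dorsolateral lobes) and 9 tumours of TRAMP, the Transgenic Adenocarcinoma of the Mouse Prostate, on 1 Affymetrix array each, 18 in all. TRAMP mice are known to carry the SV40 T antigens under a probasin promoter, which is active mainly in prostate epithelium, so the tumours model cancer driven by a viral oncoprotein. The labels used here give no age, strain, tumour grade or treatment for either group and do not state whether the normal prostates came from littermates without the transgene. They also do not say whether each sample is a separate animal, so the p-values speak only of the spread among these 18 samples, which may be partly technical. The arrays are called N1 to N9 and T1 to T9 after the replicate numbers of the labels.

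At mitosis each chromosome is held by its kinetochore, a layered assembly built on centromeric chromatin that carries the histone variant CENP-A. Its outer layer binds spindle microtubules, and a checkpoint holds back anaphase until every kinetochore is attached. The anaphase-promoting complex then marks securin and cyclins for destruction, sister chromatids part, and a contractile ring divides the cell. Most of these proteins are made chiefly in G2 and mitosis, so their transcripts are usually scarce in tissues where few cells divide.

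Of the 45 genes, 40 were higher in the tumours and 0 were lower, while 5 (Bub3, Zwint, Cenpo, Tpx2 and Pttg1) did not pass the test. Among all 18193 genes 7.89% were higher and 8.54% lower by the same test, limma with a Benjamini-Hochberg adjusted p under 0.05. Levels are log2(signal + 16), differences are tumour minus normal on that scale with the SE of the fit, and n is 9 arrays a group throughout. At an unadjusted p under 0.05, limma had 41 of the 45 higher, Bub3 among them, and 1 lower, Tpx2, against 14.9% and 15.7% of all genes. The median difference was 2.53 over the 45 genes and -0.004 over all genes. By the fitted difference, 39 of the 40 were 2-fold or more higher and 29 were 4-fold or more higher. The share of all genes past these folds was not counted. Both counts include 9 genes below the 40th percentile on every normal array, and some of their bounds, given below, fall under 4-fold. The lowest tumour lay above the highest normal array for 24 of the 45 genes, against 1.11% of all genes. A test against a 2-fold change, in place of no change, called 14 of the 45 higher and 0.423% of all genes. In RNA from whole tissue, more cells of a dividing kind and more RNA per dividing cell cannot be told apart.

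**Figure D1:**
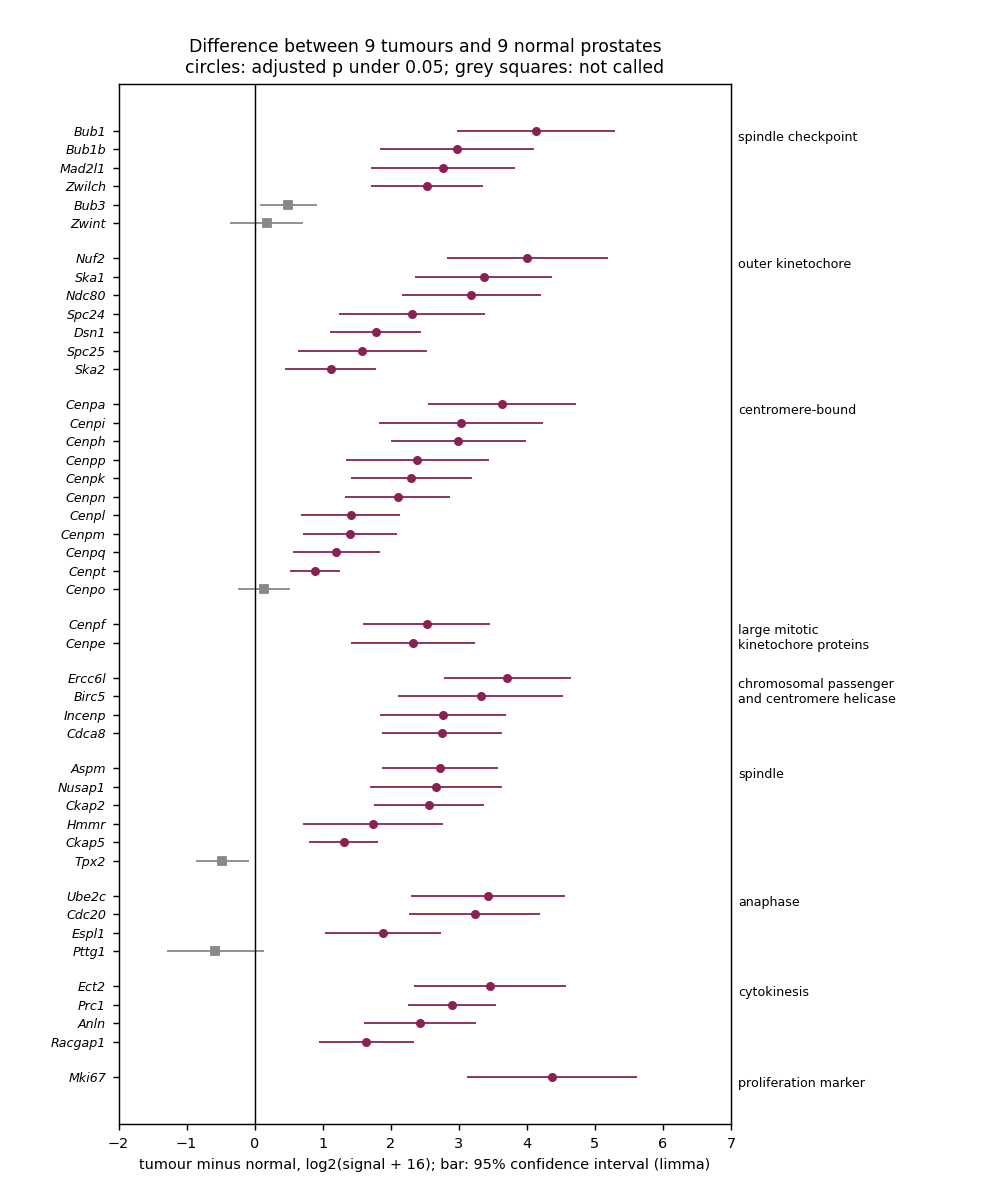
Difference between tumours and normal prostates for each of the 45 genes, grouped by role, on the log2(signal + 16) scale with the 95% confidence interval of limma (n = 9 arrays a group). Circles mark the 40 genes with an adjusted p under 0.05, all right of 0, and grey squares the 5 that did not pass, which lie between -0.58 and 0.49.

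The normal prostates sit near the lower limit of the measurement for many of these genes. A level below the 40th percentile of the same array is called dim, as no detection calls were used. Of the 45 genes, 9 were dim on all normal arrays, and 37 were dim on no tumour array. For a gene dim on all 9 normal arrays the fold is given as a bound, the tumour mean against the mean of the 40th percentiles of the normal arrays. Such bounds were at least 6.25-fold for Nuf2, 4.83-fold for Bub1 and 3.77-fold for Ercc6l, none of which was dim in a tumour. The other 6 (Bub1b, Ska1, Ndc80, Cenph, Cenpi and Cenpp) were also dim in 2 or 3 tumours, with bounds from at least 1.80-fold for Cenpi to at least 3.17-fold for Bub1b. With every dim value raised to the 40th percentile of its array, the median difference of the 45 genes was 1.83. A filter that keeps genes above that percentile on at least 9 arrays would have kept 39 of the 45, and one at the 60th percentile 27. Of those 27 genes 22 were higher, against 11.9% of all genes kept. Both filters admit such genes mainly through the tumours, where they are high, so no other count here rests on them.

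The promoters of the genes are shown because so many of them differed in 1 direction. Many mitotic genes are known to carry a cell cycle genes homology region (CHR), written TTTGAA or TTCGAA, often near CCAAT boxes, which are bound by NF-Y. The RefSeq table (GRCm38.p6) holds 44 windows for 39 of the genes, each from 250 bases before to 50 bases after a start site; Spc24, Zwilch, Incenp, Ercc6l, Tpx2 and Ska1 are not among them. The 250 bases before the start site follow for the 5 genes with the largest limma t whose window has a CHR in that stretch, 5′ to 3′ on the strand of the gene, with CHR and CCAAT letters on either strand in capitals. They are Prc1 (chr7:80294226-80294475, plus strand), Mki67 (chr7:135716380-135716629, minus strand), Cdc20 (chr4:118437344-118437593, minus strand), Ckap2 (chr8:22185820-22186069, minus strand) and Ect2 (chr3:27153879-27154128, minus strand).
Prc1: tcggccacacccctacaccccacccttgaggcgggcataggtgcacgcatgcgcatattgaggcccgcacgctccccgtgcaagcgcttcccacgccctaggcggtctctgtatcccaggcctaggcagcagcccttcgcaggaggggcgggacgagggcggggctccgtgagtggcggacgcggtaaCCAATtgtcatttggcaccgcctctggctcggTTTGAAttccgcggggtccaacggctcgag
Mki67: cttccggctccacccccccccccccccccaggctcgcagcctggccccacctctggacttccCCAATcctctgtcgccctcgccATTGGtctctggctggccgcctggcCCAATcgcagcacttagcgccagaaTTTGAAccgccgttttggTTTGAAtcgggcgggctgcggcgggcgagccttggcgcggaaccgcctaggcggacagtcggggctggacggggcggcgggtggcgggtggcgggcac
Cdc20: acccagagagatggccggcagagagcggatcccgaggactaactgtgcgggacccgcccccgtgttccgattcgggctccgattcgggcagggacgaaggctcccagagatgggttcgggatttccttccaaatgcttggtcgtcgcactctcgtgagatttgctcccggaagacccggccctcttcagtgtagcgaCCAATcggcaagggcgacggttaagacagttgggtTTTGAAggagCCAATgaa
Ckap2: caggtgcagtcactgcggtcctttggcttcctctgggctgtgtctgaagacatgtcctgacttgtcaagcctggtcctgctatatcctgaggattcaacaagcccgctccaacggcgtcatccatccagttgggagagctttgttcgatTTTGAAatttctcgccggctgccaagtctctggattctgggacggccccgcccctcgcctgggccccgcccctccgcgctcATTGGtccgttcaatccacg
Ect2: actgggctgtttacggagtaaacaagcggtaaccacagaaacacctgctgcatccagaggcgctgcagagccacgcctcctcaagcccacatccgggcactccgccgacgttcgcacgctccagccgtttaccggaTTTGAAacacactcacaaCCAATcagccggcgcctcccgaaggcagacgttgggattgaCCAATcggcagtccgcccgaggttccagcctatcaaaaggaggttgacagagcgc

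Within the stretches shown, the CHR nearest the start site begins 30 bases before it in Prc1, 18 in Cdc20, 98 in Mki67, 101 in Ckap2 and 114 in Ect2. Mki67 has 2 CHR and 3 CCAAT matches in the stretch shown, Cdc20 and Ect2 have 1 CHR and 2 CCAAT matches, and Prc1 and Ckap2 have 1 of each. Either form of CHR was found in 26 of the 44 windows, or 59.1%, against 19.2% of all 32851 windows in the table. TTTGAA was in 54.5% of the windows and TTCGAA in 6.82%, against 17.9% and 1.56% of all windows. CCAAT was in 33 of the 44, against 37.4% of all windows. Among genes on the array that are not in the list, a CHR was in 18.2% of windows of genes higher in tumours, 12.8% of those lower and 14.9% of those not called. The corresponding shares for CCAAT were 40.9%, 40.1% and 36.6%. Both motifs were searched on both strands; a CHR and a CCAAT can share at most 1 base, and a match is a string of letters, with no binding measured here.

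**Figure D2:**
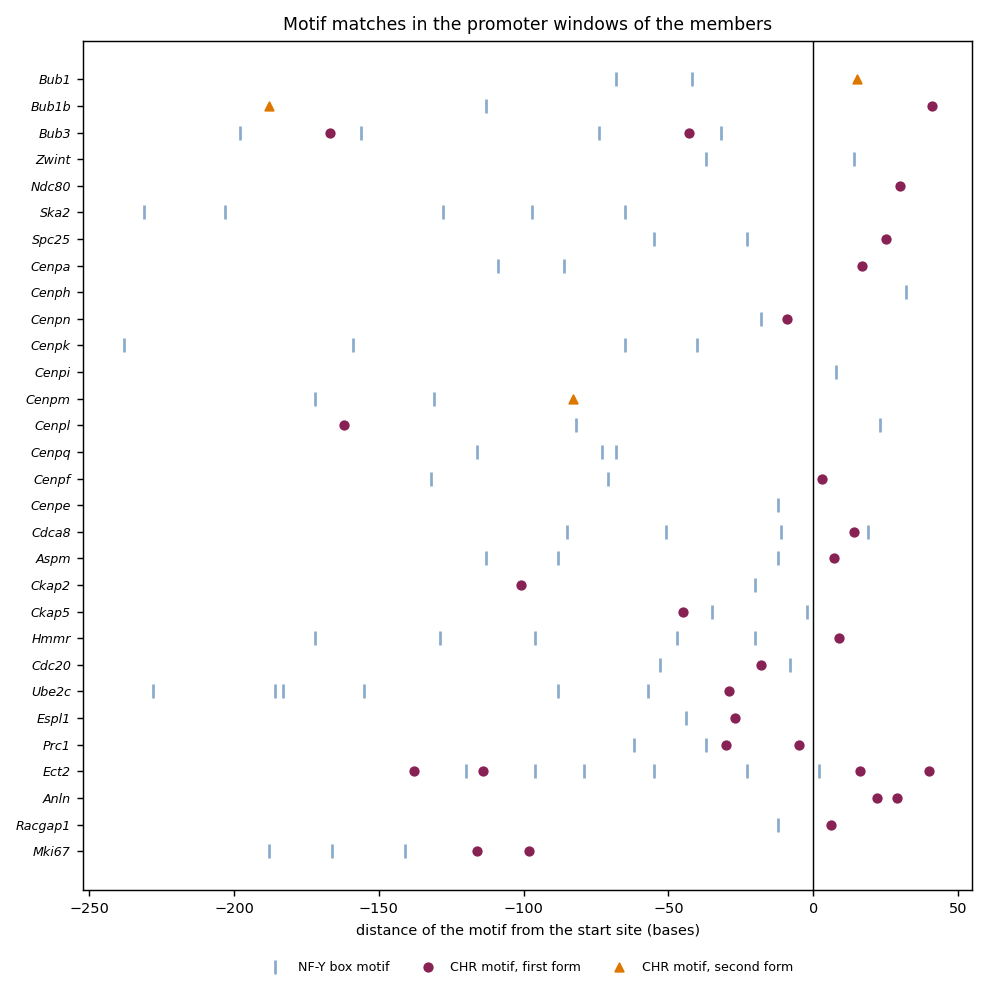
Position of each CHR match (circles TTTGAA, triangles TTCGAA) and each CCAAT match (bars) relative to the annotated start site at 0, for the genes with at least 1 match; matches in windows of several start sites of a gene are drawn on 1 row. CHR matches fall from 188 bases before to 41 bases after the start site, and those of Ckap2 and Mki67 lie farther upstream than that of Cdc20.

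Among the spindle checkpoint genes 4 of 6 were higher, with a median difference of 2.65. Bub1, the kinase that recruits checkpoint proteins to kinetochores, ran from 4.54 to 6.36 (median 4.91) in normal prostate and from 7.34 to 11.66 (median 8.97) in tumours. The groups did not overlap, the tumour values were spread over a wider range, and T9 was the highest and T7 the lowest tumour. The difference was 4.13 ± 0.555 (limma adjusted p = 0.000127). Zwilch, a subunit of the complex that brings dynein to kinetochores, ran from 6.97 to 7.58 (median 7.17) in normal prostate and from 8.12 to 11.51 (median 9.77) in tumours. These groups were apart too, at 2.54 ± 0.393 (limma adjusted p = 0.00036), and T9 and T7 were again the extremes. Bub1b, which encodes the checkpoint protein BubR1, and Mad2l1, which encodes the anaphase inhibitor MAD2, were higher by 2.97 ± 0.54 and 2.77 ± 0.505.

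The other checkpoint genes, Bub3 and Zwint, did not pass. Bub3, the protein that loads BUB1 and BubR1 onto kinetochores, ran from 10.96 to 11.53 (median 11.26) in normal prostate and from 11.19 to 12.71 (median 11.49) in tumours, and 4 tumours lay above every normal array. Its difference was 0.49 ± 0.199 (limma adjusted p = 0.0969). Zwint, a partner of the outer kinetochore that helps the checkpoint complexes dock, ran from 9.71 to 11.63 (median 10.38) in normal prostate and from 9.98 to 11.64 (median 10.49) in tumours. The highest normal array, N9, nearly reached the highest tumour, T1, and the difference was 0.18 ± 0.256 (limma adjusted p = 0.689). Other probe sets of these genes gave further readings. Of 5 Bub3 sets 1, 1459104_at, was higher by 0.83 (limma adjusted p = 0.00927 over all probe sets) with every tumour above every normal array, and of 7 Zwint sets 1, 1427540_at, was higher by 0.69 (limma adjusted p = 0.0337).

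All 7 outer kinetochore genes were higher, with a median difference of 2.32. Nuf2, a subunit of the NDC80 complex that grips microtubules, ran from 4.59 to 6.95 (median 5.68) in normal prostate and from 7.46 to 12.15 (median 9.22) in tumours. The groups did not overlap, with T9 highest and T5 lowest, and the difference was 4.0 ± 0.565 (limma adjusted p = 0.000178). Ska1, of the complex that keeps kinetochores on shrinking microtubule ends, ran from 4.19 to 5.90 (median 4.93) in normal prostate and from 6.56 to 10.13 (median 8.37) in tumours. Its groups were apart, at 3.36 ± 0.483 (limma adjusted p = 0.000206), though 3 tumours were dim. At the other end Spc25, also of the NDC80 complex, ran from 8.45 to 10.20 (median 8.82) in normal prostate and from 8.76 to 12.55 (median 9.99) in tumours. Here 4 of 9 tumours lay above the highest normal array, N9, and the difference was 1.58 ± 0.453 (limma adjusted p = 0.0224). Ndc80, which names the complex, was higher by 3.18 ± 0.487 with the groups apart, and its partner Spc24 by 2.32 ± 0.511. Dsn1, of the MIS12 complex beneath it, was higher by 1.78 ± 0.319, and Ska2 by 1.11 ± 0.316.

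Of 11 centromere-bound genes 10 were higher, with a median difference of 2.10. Cenpa, the histone variant that marks the centromere, ran from 6.63 to 8.28 (median 7.12) in normal prostate and from 8.90 to 13.31 (median 10.58) in tumours. Every tumour was above every normal array, and the difference was 3.63 ± 0.516 (limma adjusted p = 0.000185). Cenph, of the constitutive network that sits on CENP-A chromatin, ran from 4.42 to 6.52 (median 5.72) in normal prostate and from 7.08 to 10.32 (median 8.30) in tumours. It was dim on all 9 normal arrays and 2 tumours, with a difference of 2.99 ± 0.474 (limma adjusted p = 0.000434). The other members of that network spread from 3.03 ± 0.575 for Cenpi through 2.39 ± 0.502 for Cenpp, 2.30 ± 0.425 for Cenpk and 2.10 ± 0.369 for Cenpn to 0.88 ± 0.176 for Cenpt. Cenpl, Cenpm and Cenpq lay between, at 1.41, 1.40 and 1.20. Cenpo, of the same network, ran from 8.39 to 9.0 (median 8.75) in normal prostate and from 8.10 to 9.47 (median 8.84) in tumours. Its groups overlapped on both sides, the difference was 0.13 ± 0.181 (limma adjusted p = 0.662), and 0 of its 6 probe sets passed.

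Both large mitotic kinetochore proteins were higher. Cenpf, which gathers at kinetochores in G2, ran from 7.05 to 8.41 (median 7.88) in normal prostate and from 8.79 to 12.30 (median 9.76) in tumours, with the groups apart. Its difference was 2.53 ± 0.443 (limma adjusted p = 0.000982). Cenpe, a kinesin that carries chromosomes to the spindle equator, ran from 5.19 to 7.80 (median 6.45) in normal prostate and from 7.47 to 10.55 (median 9.11) in tumours. The groups touched, with 7 of 9 tumours above the highest normal array, N3, and the difference was 2.32 ± 0.433 (limma adjusted p = 0.00148).

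The chromosomal passenger genes and the centromere helicase were higher in 4 of 4 cases, and for all 4 the groups did not overlap. Their median difference was 3.04. Ercc6l, the helicase known as PICH that coats the DNA threads between separating sister chromatids, ran from 4.56 to 6.57 (median 4.66) in normal prostate and from 7.62 to 10.37 (median 9.45) in tumours. The difference was 3.71 ± 0.443 (limma adjusted p = 6.56e-05). Cdca8, which encodes borealin, ran from 7.88 to 9.07 (median 8.45) in normal prostate and from 9.30 to 13.07 (median 11.0) in tumours. No normal array was dim for Cdca8, so its difference of 2.75 ± 0.42 (limma adjusted p = 0.000334) is measured on both sides. Birc5, which encodes survivin, ran from 6.0 to 8.28 (median 7.37) in normal prostate and from 8.55 to 13.03 (median 10.33) in tumours, a difference of 3.32 ± 0.578 (limma adjusted p = 0.00091). Incenp, the scaffold of the passenger complex, was higher by 2.77 ± 0.441.

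Of 6 spindle genes 5 were higher, with a median difference of 2.15. Aspm, which organises spindle poles, ran from 6.71 to 7.51 (median 7.30) in normal prostate and from 8.48 to 11.87 (median 9.40) in tumours. The 9 normal arrays lay close together and below every tumour, at a difference of 2.72 ± 0.408 (limma adjusted p = 0.000293). Ckap2, a microtubule-binding protein of the spindle whose promoter is shown above, ran from 5.83 to 7.57 (median 7.34) in normal prostate and from 8.49 to 11.34 (median 9.40) in tumours. Its groups were apart at 2.56 ± 0.387 (limma adjusted p = 0.00031). Nusap1, which bundles microtubules near chromosomes, was higher by 2.67 ± 0.462. Hmmr, a spindle pole protein and hyaluronan receptor, was higher by 1.75 ± 0.492, and Ckap5, a microtubule polymerase, by 1.31 ± 0.241.

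Tpx2, which activates Aurora A on the spindle, gave opposite readings from different probe sets. The set with the highest mean, 1447518_at, stands for the gene in every count here; it ran from 9.45 to 10.52 (median 10.25) in normal prostate and from 9.04 to 9.93 (median 9.65) in tumours. Its difference was -0.48 ± 0.187 (limma adjusted p = 0.09), and 1447519_x_at lay on the same side at -0.34 (limma adjusted p = 0.252 over all probe sets). The other two sets were dim on 9 and 8 of the 18 arrays and passed in the other direction, each with all 9 tumours above every normal array. Set 1428104_at ran from 6.29 to 7.17 in normal prostate and from 7.69 to 11.02 in tumours, a difference of 2.55 (limma adjusted p = 0.00107), and 1428105_at differed by 2.92 (limma adjusted p = 0.00064). Which part of the transcript each set reads was not analysed here, so the Tpx2 row is uncertain, and the mean of its sets was higher by 1.16 (limma adjusted p = 0.00178).

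**Figure D3:**
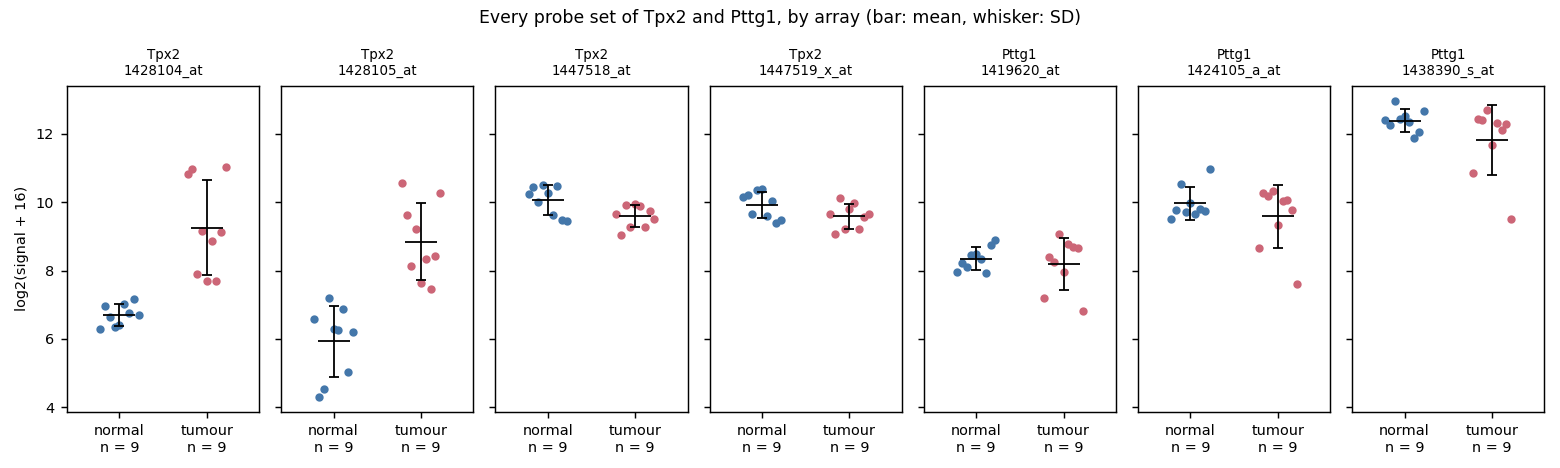
Level of every probe set of Tpx2 and Pttg1 on each array, log2(signal + 16), with the mean and SD of 9 arrays a group. The tumours lie above all normal arrays in 1428104_at and 1428105_at and not in the other Tpx2 sets, and 2 tumours lie low in each Pttg1 set.

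Of the 4 anaphase genes 3 were higher, with a median difference of 2.56. Cdc20, the activator of the anaphase-promoting complex, ran from 7.72 to 9.40 (median 8.39) in normal prostate and from 9.92 to 13.59 (median 11.46) in tumours. No array was dim, the groups did not overlap, and the difference was 3.24 ± 0.459 (limma adjusted p = 0.000184). Ube2c, the ubiquitin-conjugating enzyme of that complex, ran from 6.67 to 7.89 (median 7.49) in normal prostate and from 9.02 to 13.20 (median 10.42) in tumours. Its groups were apart as well, at 3.43 ± 0.539 (limma adjusted p = 0.000408). Espl1, the separase that cuts cohesin, was higher by 1.89 ± 0.407 (limma adjusted p = 0.00412).

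Pttg1, the securin that restrains separase, was not higher. It ran from 11.86 to 12.97 (median 12.40) in normal prostate and from 9.51 to 12.71 (median 12.27) in tumours, and 0 tumours lay above the highest normal array. Its difference of -0.58 ± 0.339 did not pass (limma adjusted p = 0.264). T9 was at 9.51, T1 at 10.86 and T5 at 11.67, all below every normal array, and the other 6 tumours lay within the range of the normal arrays. The other Pttg1 probe sets had the same tumours lowest, with T9 at 7.61 and T1 at 8.65 on 1424105_a_at and T9 at 6.82 and T1 at 7.19 on 1419620_at. T1 and T9 were among the 3 highest tumours for most of the other genes. The sets standing for Pttg1, Bub3 and Cenpo end in _s_at, a suffix for sets that can match more than 1 transcript; with no set ending in _s_at or _x_at used, each of the 45 genes kept its direction and its side of the threshold.

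All 4 cytokinesis genes were higher, with a median difference of 2.66. Prc1, which bundles the antiparallel microtubules of the central spindle, ran from 7.16 to 8.06 (median 7.78) in normal prostate and from 9.25 to 11.90 (median 10.59) in tumours. The gap between the groups was more than 1 on the log2 scale, and the difference was 2.89 ± 0.309 (limma adjusted p = 2.34e-05). Ect2, the exchange factor that switches on RhoA at the division plane, ran from 6.41 to 7.75 (median 6.96) in normal prostate and from 8.09 to 12.64 (median 9.99) in tumours. It differed by 3.46 ± 0.532 (limma adjusted p = 0.000345), with no overlap. Anln, a scaffold of the contractile ring, was higher by 2.43 ± 0.391. Racgap1, the partner of Ect2 in the central spindle, ran from 7.50 to 8.36 (median 7.90) in normal prostate and from 8.22 to 11.07 (median 9.42) in tumours. Its difference was 1.64 ± 0.334 (limma adjusted p = 0.00279) on the set used, and 4.26 on 1421546_a_at, where all 9 tumours were above every normal array (limma adjusted p = 9.77e-05 over all probe sets).

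Mki67 encodes Ki-67, the nuclear antigen commonly stained to count dividing cells. On the normal arrays it ran from 5.19 in N9 to 9.01 in N7 (median 7.85), with N3 at 5.39 and the other 6 between 7.64 and 8.21. On the tumours it ran from 9.74 in T7 to 13.67 in T9 (median 12.14), so that every tumour was above every normal array. The difference was 4.37 ± 0.597 (limma adjusted p = 0.000142).

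**Figure D4:**
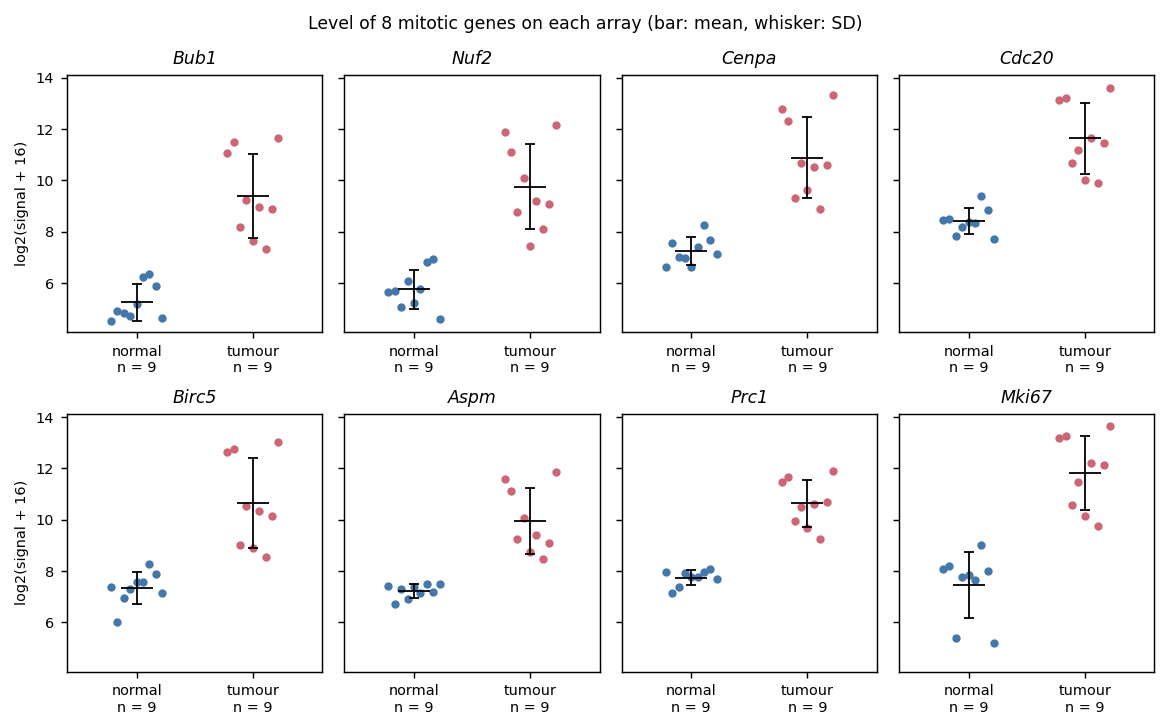
Level of 8 of the genes on each of the 18 arrays, log2(signal + 16), with the mean and SD of 9 arrays a group. In all 8 the lowest tumour lies above the highest normal array, and T1, T2 and T9 form the upper cluster of tumours.

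Over all 106 probe sets, 72 were higher, 0 were lower and 34 were not called, against 7.04% higher and 6.42% lower among all 34945 probe sets. Of the 34 not called, 18 were dim on 9 or more of the 18 arrays. A single probe set stood for 18 genes. Of the 27 genes with several, 12 had every set higher. Among the 61 sets other than the one chosen for its gene, 32 were higher, to be read against the same 7.04%.

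The tumours differed from one another in the same order for most of the genes. T1, T2 and T9 were the 3 highest tumours for 40 of the 45 genes, and T3, T5 and T7 the 3 lowest for 33. The median over the 45 genes of a tumour's level minus the normal mean was 4.10 in T9, 3.90 in T2 and 3.75 in T1. It was 2.27 in T6, 2.23 in T8 and 2.04 in T4, and then 1.35 in T3, 0.90 in T7 and 0.89 in T5. All 9 tumours were therefore above the normal arrays by this measure, whose values in normal prostate ran from -0.16 in N9 to 0.26 in N7. The number of genes above the highest normal array was 43 of 45 in T1, 42 in each of T2, T4 and T9, 37 in each of T3, T6 and T8, 30 in T5 and 29 in T7. The share of all genes above the highest normal array was not counted tumour by tumour, so these counts have no background. The SD over tumours exceeded the SD over normal prostates for 43 genes, Cenpm and Tpx2 being the exceptions. T9 was the highest tumour for 31 genes and T7 the lowest for 27. How many of all genes share this order or this wider tumour spread was not counted.

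**Figure D5:**
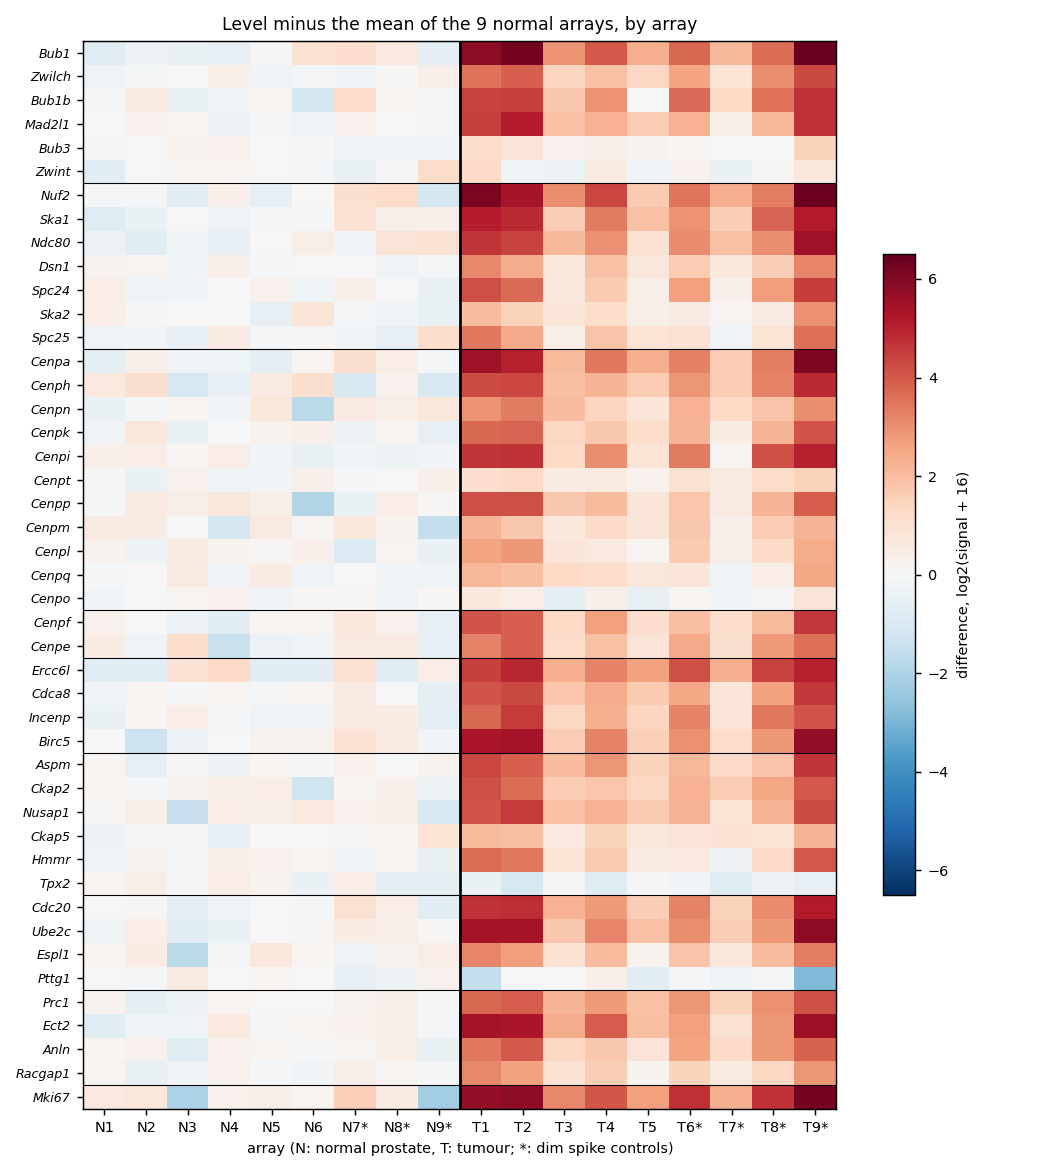
Level of each of the 45 genes on each array minus the mean of the 9 normal arrays, log2(signal + 16), with genes in rows by role and arrays in columns; an asterisk marks the arrays with dim spike controls. T1, T2 and T9 are the darkest columns and T3, T5 and T7 the palest tumours, while the rows of Bub3, Zwint, Cenpo, Tpx2 and Pttg1 stay pale or turn blue.

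Markers of other cell types also differed among the tumours. The mean level of 6 seminal vesicle genes (Svs2 and relatives) was 15.57 in T5, 15.08 in T3 and 14.98 in T7, the 3 tumours lowest in the mitotic genes, and 10.85 or less in the other 6 tumours. Among normal arrays it was 12.09 in N9 and 7.85 or less in the others. Without these 4 arrays, 40 of the 45 genes were higher, against 10.4% of all genes, and the median difference was 3.13. Because the omitted tumours are the 3 lowest in the mitotic genes, a larger median follows from the omission itself. This fit therefore cannot show what seminal vesicle tissue contributes. Neuroendocrine genes (5 of 6 listed were measured, Chga among them) were at 12.03 in T9, 11.37 in T1 and 10.16 in T4, but at 6.85 in T2, and between 6.47 and 6.99 in normal prostate. Lymphocyte genes, which could bring dividing cells of another kind, ran from 6.39 to 7.46 in normal prostate and from 6.17 to 7.58 in tumours (6 of 8 measured). Of these 6, Ptprc and Ms4a1 were dim on no tumour, and Cd2, Cd3e, Cd3g and Cd79a were each dim on 7 or more of the 9 arrays of either group. Ptprc, a gene of white blood cells in general and not of lymphocytes alone, differed by 1.03 ± 0.369 without passing (limma adjusted p = 0.0614). For this gene 7 of 9 tumours lay above the highest normal array. Ms4a1 differed by -0.02 ± 0.264. Smooth muscle genes were lowest in T9 and T2, at 8.48 and 8.58, both among the tumours highest in the mitotic genes. They were at 11.57 in T1, and at 11.33 in T5, 12.60 in T3 and 14.34 in T7. In T4, T8 and T6 they were at 13.06, 14.03 and 14.28, so they neither matched nor reversed the order of the mitotic genes throughout. In normal prostate they ran from 10.35 to 13.79. Prostate luminal genes (7 of 8 measured) had a median of 12.19 in normal prostate and 8.19 in tumours, and N9, T2 and T7 were each at 8.19. The fall was not shared by the whole list. Pbsn, Azgp1 and Msmb were lower by limma, with Pbsn dim on all 9 tumours, and Hoxb13, Krt8, Krt18 and Tgm4 were not called. Krt8 had medians of 13.62 in normal prostate and 13.82 in tumours, and Krt18 of 14.04 and 14.0. In T9, however, Krt8 was at 7.72 and Krt18 at 7.05, against lowest normal levels of 13.15 and 13.21. Hoxb13 differed by -3.68 ± 1.31 (limma adjusted p = 0.062) and was dim on 3 tumours and 1 normal array. Fat genes (5 of 6 measured) had medians of 11.64 and 6.72. The part of these cell types in the differences was not tested.

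Arrays also fell into technical sets by their spike controls. These controls were bright on 11 arrays (9.91 to 12.55) and dim on N7, N8, N9, T6, T7, T8 and T9 (4.69 to 5.40). With that set as a block, 40 of the 45 genes were higher, against 8.23% of all genes. On the bright arrays alone, 6 normal against 5 tumours, 34 were higher, against 4.66%, with a median difference of 2.55; Cenpl, Cenpm, Cenpt, Espl1, Ska2 and Spc24 no longer passed. On the dim arrays alone, 3 normal against 4 tumours, limma called 0 of the 45 and 0.0% of all genes. At an unadjusted p under 0.05 it had 35 of the 45 higher there, against 5.74% of all genes, and the median difference was 2.47.

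The actin 3' to 5' ratio, which grows as RNA degrades, also moved with the group. On the log2 scale it ran from 0.313 to 2.48 (median 1.71) in normal prostate and from 0.46 to 2.18 (median 0.95) in tumours, so the ranges overlapped and the normal median was higher. With this ratio as a covariate, 37 of the 45 genes were higher, against 3.89% of all genes. The genes lost were Cenpl at 1.29 (limma adjusted p = 0.0536), Hmmr at 1.72 (limma adjusted p = 0.0715) and Spc25 at 1.42 (limma adjusted p = 0.102), close to their differences without it.

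Other genes of the same processes that are not among the 45 were also higher for the most part, apart from the anaphase-promoting complex. Of 20 measured kinetochore and centromere genes (22 were listed), 13 were higher, 2 lower and 5 not called, with a median difference of 1.46. Among all genes 7.89% were higher and 8.54% lower by this test. At an unadjusted p under 0.05, limma had 15 of the 20 higher and 2 lower, against 14.9% and 15.7% of all genes. Kntc1, a partner of Zwilch, was higher by 2.97 ± 0.333 (limma adjusted p = 4.3e-05), Cenpw by 2.28 ± 0.303 (limma adjusted p = 0.000116) and Ska3 by 2.65 ± 0.392 (limma adjusted p = 0.000259). Nsl1, of the MIS12 complex, fell by 0.68 ± 0.212 (limma adjusted p = 0.0346), and Cenpx, a histone-fold protein, fell by 0.83 ± 0.237 (limma adjusted p = 0.0225). Of 20 spindle and cytokinesis genes 14 were higher and 0 lower, with a median difference of 2.03. At an unadjusted p under 0.05, limma had 15 higher and 0 lower, and both counts are to be read against the same shares of all genes. The largest by the ratio of difference to SE were Tacc3, a spindle microtubule protein, at 2.29 ± 0.294, the kinesin Kif11 at 3.34 ± 0.429 and Ckap2l at 2.12 ± 0.296. Of 13 genes for subunits of the anaphase-promoting complex and its activator Fzr1, limma called 0, with differences from -0.34 for Anapc13 to 0.46 for Anapc5 and a median of 0.20. At an unadjusted p under 0.05 it had 2 of the 13 higher, about the 14.9% of all genes, and 0 lower, against 15.7%.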

How the data were processed

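RNA was isolated with Trizol and biotin-labelled for Affymetrix arrays, 1 array to a sample, per the labels' protocols. The deposited intensities are linear probe set values; the submitters' processing notes name MAS5 (version not given in the sources used here) as the tool the authors used. Each of the 18 arrays had a 2% trimmed mean of 500, so the values are scaled by 1 factor per array, which leaves dim probe sets noisy. Precision is limited by the number of arrays.

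Groups and replicate numbers came from the labels. GEO's platform annotation gives a single gene for 34945 of the 45101 probe sets, several for 932 and no gene for 9160; 64 others are controls. RefSeq's gene table (GRCm38.p6) holds the Entrez identifier of 34741 of the single-gene sets, and 0 symbols changed. Log2(signal + 16) was computed; the added 16 makes a difference understate the change of dim genes. Each of 18193 genes was represented by 1 single-gene probe set, that of highest mean over the 18 arrays, with no filter on low values. Every gene was tested for a group difference with lmFit and eBayes of limma (version 3.58.1, under R version 4.3.3), two-sided, with Benjamini-Hochberg adjustment at 0.05; probe sets were tested in a fit over all 34945. The code was tested on simulated data. The members, gene lists and alternatives were chosen with earlier results of these data known, among them the arrays high in seminal vesicle genes and the spike control sets.

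Full values are given for the 2 members with the largest and the 1 with the smallest absolute t of each role, every member not past the threshold, and Mki67. For the other pathway lists, up to 3 genes by absolute t and every gene that fell are named. Marker scores are means of log2 levels. Alternatives were pseudocounts of 1 and 64, filters at the 40th and 60th percentiles, quantile normalization, centring on the 75th percentile, the mean of probe sets, omission of sets that can match several transcripts, a trended robust prior, replicate and technical blocks, each technical set alone, omission of 4 arrays, the actin 3' to 5' ratio as a covariate, a test against a 2-fold change and omission of each array in turn. Plots were made in matplotlib (version 3.10.9, Python version 3.11.15).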

Additional observations from a re-analysis of the deposited data

Results flagged for a closer look

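For 6 of the 90 sets of 9 arrays examined (45 genes in each group), 1 normal array stood far from the other 8; chance alone marks about 1 in 20 such sets. Zwint was at 11.63 in N9, with the next highest normal array at 10.54, and Ckap5 was at 9.59 in N9, with the next at 8.84. N6 was the lowest normal array for 3 genes: Ckap2 at 5.83, with the next lowest at 6.81, Cenpn at 5.36, with the next at 6.72, and Cenpp at 4.34, with the next at 5.81. Espl1 was at 4.86 in N3, with the next lowest at 6.34. All values are log2(signal + 16).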

How the results depend on the processing

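The count of 40 genes higher and 0 lower was the same with pseudocounts of 1 and 64, quantile normalization, centring on the 75th percentile, a trended robust prior, the technical set as a block and omission of sets ending in _x_at or _s_at. Same-numbered arrays showed little likeness (correlation of deviations from -0.081 to 0.21), a measure that cannot exclude a pairing by number. With the replicate number as a block, 40 genes were higher and 0 lower. Leaving out each array in turn kept the count higher at 40; the count lower ran from 0 to 1, the 1 being Tpx2 without N9 (-0.55, limma adjusted p = 0.0426). Tpx2 was also the 1 gene lower (-0.61, limma adjusted p = 0.0433) without the 4 arrays highest in seminal vesicle genes. The count higher was 22 of the 27 genes left by a 60th percentile filter (11.9% of all genes left), which favours genes high in tumours, 14 in the test against a 2-fold change and 0 on the arrays with dim spike controls, where fewer arrays remain. With the actin ratio as a covariate 37 were higher (3.89% of all genes), without Cenpl, Hmmr and Spc25, whose differences were 1.29, 1.72 and 1.42. Directions turned for Tpx2 with the mean of its probe sets (1.16) and for Zwint, which never passed, with the actin ratio as a covariate (-0.053) and on the dim spike arrays alone (-0.037); the cause was not tested.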
